A study of Mus musculus with 6 samples.

Results

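The genes described here are 32 transcripts of leukocytes, the immune cells of the blood and tissues: general leukocyte genes, macrophage genes, Cpa3 of mast cells and Cd207 of Langerhans cells. They were taken by symbol from the table of gene counts, in which each symbol matched 1 of 55401 gene rows. RNA sequencing covered back skin, epidermis together with dermis, of mouse embryos at the embryonic day E15.5, from 3 control embryos and 3 embryos labelled Prmt5 cKO, 1 embryo per library. By the title of the series Prmt5, an arginine methyltransferase of histones and splicing proteins, was lost from the epidermis. The name of the deposited counts labels the mutant CRECT. The promoter behind that label and the alleles of the controls are not stated in the sources at hand. Leukocytes are not said to have lost the gene, and the comparison therefore asks how leukocyte transcripts of whole skin stood when the epidermis lacked Prmt5.

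Macrophages reach the skin of the mouse embryo before birth, from the yolk sac and then the fetal liver, and settle in the dermis, where they take up dying cells and lie along vessels and nerves. Their development needs the transcription factor PU.1, encoded by Spi1, and signals through the receptor Csf1r, whose ligands are Csf1 and Il34. Mast cells store proteases such as carboxypeptidase A3 in granules and depend on the receptor Kit. Langerhans cells descend from fetal macrophages and monocytes that enter the epidermis, and they switch on Cd207 (langerin) around birth.

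Libraries held from 35667634 to 66122667 gene counts. Levels are given as CPM, counts relative to library size, with library sizes scaled by the trimmed mean of M values (TMM), in the order of replicates 1 to 3. Fold changes are on the log2 scale, cKO against control, with their SE, and the adjusted p is that of edgeR's quasi-likelihood test with Benjamini-Hochberg adjustment over the 19227 genes tested, called at 0.05. Prmt5 measured 69.7, 40.1 and 67.9 CPM in control skin and 27.1, 30.7 and 26.8 CPM in the cKO libraries, which did not overlap (-1.07 ± 0.19, adjusted p = 0.00292). Of 15 pan-epithelial genes 12 fell and 1, St14, rose, and their summed level was 4811 to 5186 CPM in control skin and 2548 to 2881 CPM in cKO skin. All 14 dermal fibroblast genes and 11 skeletal muscle genes, and 12 of 16 blood endothelial genes, rose. In bulk skin, fewer cells of a type and less RNA per cell cannot be told apart, and a gene of 1 cell type also moves in CPM when the share of the other cells changes; the part of these shifts in the leukocyte results was not tested.

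The leukocyte genes divided between those called higher in the cKO skin and those not called. Of the 32 genes 31 were tested, 14 rose and 1, Itgam, fell, while 16 were not called. Among all genes tested 16.3% rose and 19.6% fell, 3139 and 3767 genes; with upper-quartile scaling the split was 4514 and 2719. The median log2 fold change of the 31 genes was 0.33, against -0.01 for all genes, and 30 of the 31 had a value above 0. The groups did not overlap for 17 genes with higher and 1 gene with lower cKO values, where 23.3% and 26.6% of all genes tested did so. The number that rose depended on single libraries: it was 7 without cKO replicate 1, 6 without cKO replicate 3 and 8 without control replicate 1, 10 and 19 without control replicates 2 and 3, and 18 without cKO replicate 2. The median of the leukocyte genes stayed between 0.29 and 0.40 in those fits. Calls fell among all genes too: 2460 to 2780 genes were called higher in those fits, against 3139 with all libraries.

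Set against other cells of the dermis, the rise was not seen. When the libraries were scaled to 30 fibroblast and blood endothelial genes, 0 of the 31 genes were called higher and 1, Itgam, lower, and their median was -0.07, while the median of all genes moved to -0.41. That median was -0.18 without control replicate 1, -0.15 without cKO replicate 3, -0.030 without control replicate 3, -0.0078 without cKO replicate 2, -0.0045 without control replicate 2 and -0.25 with size factors from summed counts. No gene was higher at an unadjusted p under 0.05 by edgeR on that scale, on which 4.19% of all genes tested were called higher and 51.3% lower. A further scale used 14 other genes shared by most leukocytes, whose own median was 0.34 with TMM scaling. It sets leukocyte genes against genes of the same cells, so it cannot show a rise that they share. On it 0 of the 31 genes were called higher and Itgam lower. The median was -0.02 (-0.03 to 0.01 without 1 library) where that of all genes was -0.35. By edgeR 1 gene, Folr2, was higher at an unadjusted p under 0.05, and 3.86% and 38.4% of all genes were called higher and lower. Scaled instead to the 15 pan-epithelial genes, 30 of the 31 were called higher, and the median was 1.28 where that of all genes was 0.95. On that scale most genes were called higher, 15284 of the 19227 tested, and 813 were called lower. The median of the leukocyte genes therefore depended on the genes that the libraries were scaled to. It was 0.33 with TMM scaling, 1.28 against pan-epithelial, -0.07 against stromal and -0.02 against other leukocyte genes. The last 2 values were smaller than the spread of the median between libraries (SD 0.113), so no reversal of the group was shown. Values named below are on the TMM scale unless another is given.

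**Figure D1:**
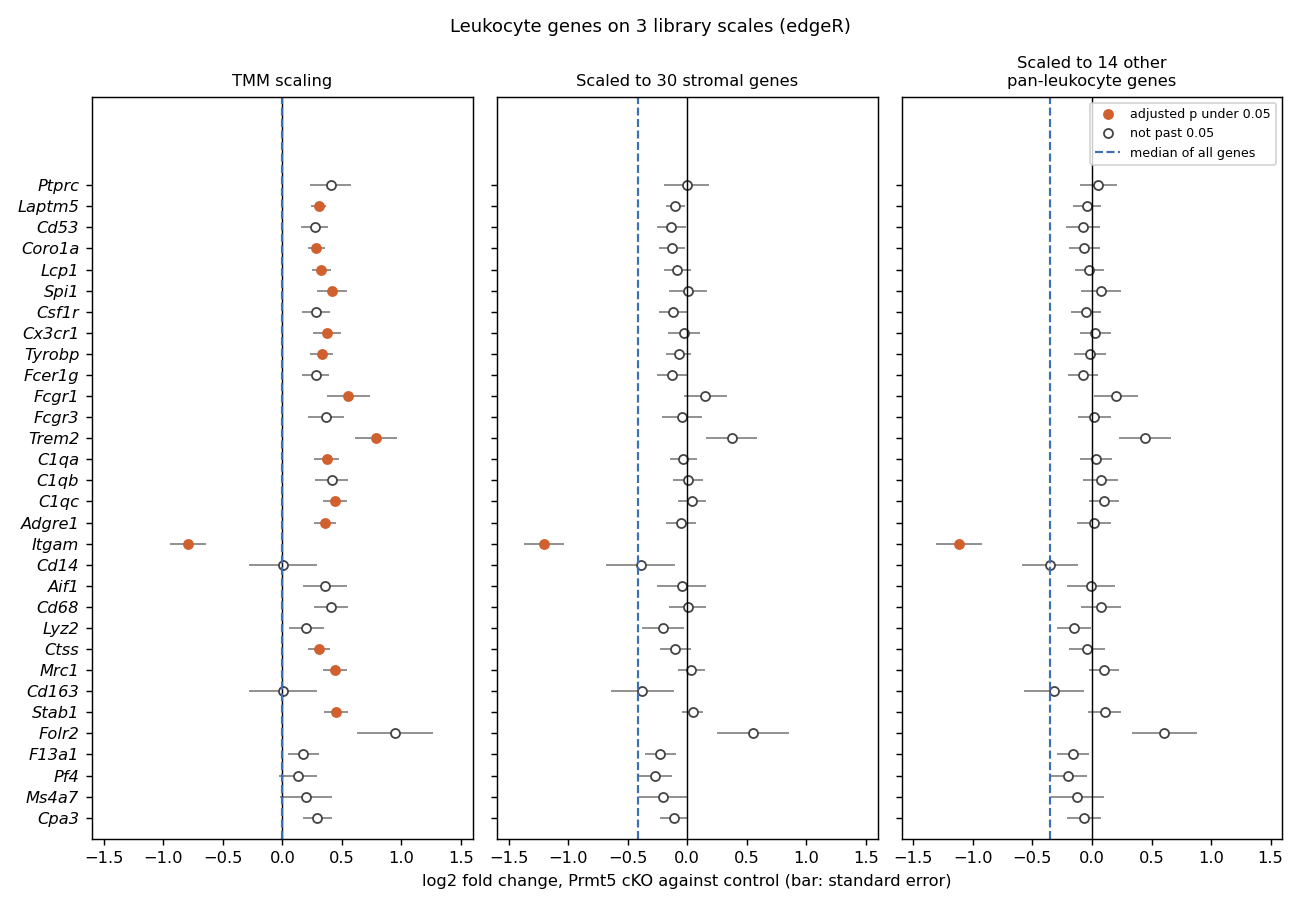
Log2 fold change (x axis, cKO against control, with SE) of 31 leukocyte genes (y axis) with TMM scaling, scaled to 30 stromal genes and scaled to 14 other pan-leukocyte genes; filled points passed an adjusted p of 0.05 and the dashed line is the median of all genes. With TMM scaling 14 genes lie higher and Itgam lower, and on both other scales Itgam is the 1 filled point; scaled to pan-epithelial genes, not drawn, Itgam is at 0.16.

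Genes used by nearly all leukocytes came first. Laptm5, a lysosomal membrane protein that limits antigen receptor signalling, measured 54.6, 50.1 and 57.3 CPM in control skin and 68.6, 63.5 and 67.7 CPM in cKO skin, and rose by 0.30 ± 0.06 (adjusted p = 0.00624). Lcp1, the actin-bundling protein L-plastin, measured 73.8, 90 and 82.2 CPM and 106, 96.1 and 107 CPM, and rose by 0.33 ± 0.08 (adjusted p = 0.0118). In both genes every cKO library lay above every control library. Coro1a, an actin regulator of migrating leukocytes, measured 33.6, 39.3 and 36.9 CPM and 45.8, 42.5 and 45.4 CPM, without overlap (0.28 ± 0.07, adjusted p = 0.0155); its adjusted p was 0.0521 without cKO replicate 1 and 0.0547 without cKO replicate 3. Ptprc, the phosphatase CD45 that marks leukocytes, measured 9.51, 12.9 and 13.3 CPM and 16.5, 12.6 and 18.3 CPM. Its groups overlapped through cKO replicate 2, and its difference was 0.41 ± 0.17 (adjusted p = 0.102, and 0.0337 without that library). The tetraspanin Cd53 likewise overlapped through cKO replicate 2 (0.27 ± 0.11, adjusted p = 0.0971, and 0.03 without it). Relative to the stromal genes the 5 values ran from -0.13 for Cd53 to -0.003 for Ptprc.

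Of the lineage factor Spi1 and the receptors Cx3cr1 and Csf1r, the first and second were called higher. Spi1 measured 6.06, 7.75 and 7.74 CPM in control skin and 9.25, 9.69 and 9.79 CPM in cKO skin, with no overlap, and rose by 0.41 ± 0.13 (adjusted p = 0.0323). Cx3cr1, the receptor for the chemokine Cx3cl1, measured 27.9, 29.2 and 36.3 CPM and 38.9, 36.6 and 45.4 CPM, and rose by 0.37 ± 0.12 (adjusted p = 0.0374). For Cx3cr1 control replicate 3 was the nearest to the lowest cKO library. Neither call held without cKO replicate 1, cKO replicate 3 or control replicate 1: the adjusted p was then 0.0629 to 0.0872 for Spi1, 0.0797 without cKO replicate 2, and 0.0677 to 0.127 for Cx3cr1, control replicate 2 included. Csf1r, on which macrophage survival depends, measured 73.5, 72.9 and 101 CPM and 100.5, 96.3 and 104 CPM. Control replicate 3 stood among the cKO libraries, and the difference of 0.28 ± 0.12 was not called (adjusted p = 0.0995, and 0.00133 without that control). Exons of Hmgxb3 on the other strand cover 15.1% of the exon bases of Csf1r, and whether the counting used strand is not given in the sources used here.

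Signalling adaptors and receptors for antibodies and lipids were the next group. Tyrobp (DAP12), the adaptor through which Trem2 signals, measured 21.1, 20.1 and 23.1 CPM in control skin and 29.4, 24 and 27.5 CPM in cKO skin, and rose by 0.33 ± 0.10 (adjusted p = 0.0272). Trem2, a receptor for lipids and dying cells, measured 1.87, 2.66 and 2.33 CPM and 4.07, 3.9 and 3.9 CPM, and rose by 0.79 ± 0.18 (adjusted p = 0.00914). Its cKO libraries lay close together and all above the controls, a 1.73-fold rise in mean CPM. Fcgr1, the high-affinity receptor for immunoglobulin G, measured 4.12, 3.64 and 4.98 CPM and 6.76, 5.02 and 6.87 CPM, and rose by 0.55 ± 0.18 (adjusted p = 0.0426), although cKO replicate 2 stood barely above control replicate 3. Without cKO replicate 1 or 3 or control replicate 1 or 2, the adjusted p was 0.0589 to 0.0872 for Tyrobp and 0.0959 to 0.131 for Fcgr1. Fcer1g, the shared gamma chain of the Fc receptors of macrophages and mast cells, measured 27.4, 28.4 and 30.9 CPM and 37.8, 29.2 and 38.3 CPM. It overlapped through cKO replicate 2 (0.28 ± 0.11, adjusted p = 0.0835, and 0.00734 without that library). Fcgr3 overlapped too (0.37 ± 0.15, adjusted p = 0.102, 0.0475 without cKO replicate 2 and 0.0423 without control replicate 3). Scaled to the stromal genes Trem2 kept a value of 0.37 ± 0.21 and Fcgr1 of 0.15 ± 0.18, neither of them called (adjusted p = 0.16 and 0.515).

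C1qa, C1qb and C1qc encode the chains of C1q, the recognition unit of the classical complement pathway, which in tissues is made mainly by macrophages and dendritic cells. C1qc measured 21.6, 23.1 and 26.8 CPM in control skin and 33.3, 29.3 and 34.5 CPM in cKO skin, and rose by 0.45 ± 0.10 (adjusted p = 0.00922). C1qa measured 19.4, 19.4 and 24.6 CPM and 28.4, 26.4 and 27.1 CPM, and rose by 0.37 ± 0.10 (adjusted p = 0.0243). C1qb measured 24.3, 21 and 29.6 CPM and 38.7, 30.2 and 30.6 CPM, a difference of 0.41 ± 0.14 that was not called (adjusted p = 0.0527). None of the 3 genes overlapped between groups, and in each control replicate 3 was the control nearest to the cKO. C1qa had an adjusted p of 0.058 to 0.0714 without cKO replicate 1 or 3 or control replicate 1 or 2, and C1qb of 0.0195 without control replicate 3. The genes lie side by side on chromosome 4 (GRCm38, minus strand), from base 136880129 of C1qb to base 136898803 of C1qa. Their values relative to the stromal genes were -0.03, 0.01 and 0.04, and relative to the other leukocyte genes 0.03, 0.07 and 0.10, for C1qa, C1qb and C1qc.

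Itgam was the 1 leukocyte gene that fell. It encodes CD11b, the alpha chain that pairs with Itgb2 (CD18) to form complement receptor 3, and it is carried by macrophages, monocytes, neutrophils and natural killer cells. The gene spans bases 128062640 to 128118491 of chromosome 7 on the plus strand (GRCm38) and is protein coding. Its counts were 321, 568 and 332 in control skin and 228, 324 and 199 in cKO skin, or 7.24, 8.58 and 9.45 CPM and 4.86, 5.48 and 4.25 CPM. Every cKO library lay below every control library, with means of 8.42 ± 1.12 and 4.86 ± 0.616 CPM (SD, n = 3 each), a 1.73-fold fall. The log2 fold change was -0.79 ± 0.15 (adjusted p = 0.00397), and a two-sided exact permutation test over its 6 values returned p = 0.1, which 3 against 3 libraries cannot go below. The authors' deposited DESeq2 table gives -0.77 (adjusted p = 0.000194), and their deposited Sleuth table -0.63 on the log2 scale (q = 0.00068).

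The stromal and leukocyte scales set each gene against references that rose with TMM scaling. Their list medians were 0.47 for fibroblast, 0.32 for blood endothelial and 0.34 for other pan-leukocyte genes. The median of all genes was -0.41 on the stromal and -0.35 on the leukocyte scale. On these 2 scales the fall of Itgam was larger. Relative to the stromal genes it was -1.20 ± 0.17 (adjusted p = 0.000197) and relative to the other leukocyte genes -1.12 ± 0.19 (adjusted p = 0.000275), whereas scaled to the pan-epithelial genes it was 0.16 (adjusted p = 0.425). Leaving out any 1 library kept it between -0.89 and -0.69 with TMM, between -1.33 and -1.11 on the stromal scale and between -1.31 and -0.98 on the leukocyte scale, each time called lower. Per CPM of Ptprc, Itgam was at 0.761, 0.664 and 0.709 in control skin and at 0.294, 0.435 and 0.232 in cKO skin, while the same ratio for Mrc1 was 13.3, 11.5 and 12.4 in control skin and 13.1, 14.7 and 10.7 in cKO skin. Its partner Itgb2 measured 3.18, 2.63 and 2.85 CPM and 3.71, 3.25 and 3.8 CPM, a difference of 0.31 ± 0.16 in the other direction (adjusted p = 0.17). The model Gm49368 on the same strand covers 68.7% of the exon bases of Itgam, so the division of reads between them is uncertain. Gm49368 held 89 counts over the 6 libraries, and the sum of both was 7.87, 8.58 and 9.45 CPM in control skin and 4.93, 5.48 and 5.48 CPM in cKO skin, still without overlap and 1.63-fold lower. Neutrophil genes, whose cells also carry Itgam, were near the limit of detection: of 15 monocyte and neutrophil genes 9 were tested, Fcnb was at 0 in all libraries, and the summed level was 13.6 to 18.7 CPM in control skin and 17.3 to 27.4 CPM in cKO skin. Plac8 and Ccr2 were the most abundant of them. S100a9, a calcium-binding protein of neutrophils named after its values were seen, measured 0.654, 0.921 and 1.42 CPM in control skin and 0.277, 0 and 0.341 CPM in cKO skin, and like Itgam did not overlap. Its difference was -2.30 ± 0.84 (adjusted p = 0.0645, and 0.036 without cKO replicate 2), and it was called lower on the stromal (-2.71, adjusted p = 0.0144) and leukocyte (-2.67, adjusted p = 0.00533) scales, also when any 1 library was left out. With all libraries 51.3% and 38.4% of all genes tested were called lower on those scales, and S100a9 had 13, 0 and 16 counts in cKO skin. Of the 9 genes tested 6 had a value above 0. S100a8 was at 0.22 ± 0.42, Ctsg at 0.93 ± 0.34 and Csf3r at 0.03 ± 0.26. Prtn3 and Ly6c2 were at -0.26 ± 0.74 and -0.05 ± 0.26, and with TMM scaling none of the 9 was called. The part of S100a9 in the result of Itgam was not tested.

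None of the other macrophage surface and lysosomal genes was called lower with TMM scaling. Adgre1 (F4/80), a surface marker of mouse macrophages, measured 17.8, 21.2 and 22 CPM in control skin and 25.8, 25.4 and 27 CPM in cKO skin, and rose by 0.36 ± 0.09 (adjusted p = 0.0178, and 0.0562 without cKO replicate 3). Ctss, the lysosomal protease cathepsin S, measured 10.4, 11.7 and 11 CPM and 13.2, 13.3 and 14.5 CPM, and rose by 0.31 ± 0.09 (adjusted p = 0.0328). The groups of both genes did not overlap, yet the adjusted p of Ctss was 0.0583 to 0.103 when any cKO library or control replicate 1 or 3 was left out. Lyz2, the lysozyme of myeloid cells, measured 30.9, 40.8 and 41 CPM and 39.3, 37.9 and 52.4 CPM; cKO replicate 3 stood alone above the controls (0.20 ± 0.15, adjusted p = 0.341). The endosomal protein Cd68 did not overlap but missed the threshold (0.41 ± 0.14, adjusted p = 0.0512, and 0.0132 without control replicate 3). Aif1 (Iba1), an actin-binding protein of macrophages, was at 0.36 ± 0.19 (adjusted p = 0.178, and 0.0398 without cKO replicate 2). Cd14, the co-receptor for bacterial lipopolysaccharide, was at 0.00 ± 0.29 (adjusted p = 0.998) and changed sign with single libraries.

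Of 7 genes of resident, scavenging macrophages 2, Mrc1 and Stab1, rose (median 0.20), where 16.3% of all genes tested rose. Mrc1 (CD206), the mannose receptor, measured 126, 148 and 165 CPM in control skin and 216, 185 and 196 CPM in cKO skin, and rose by 0.44 ± 0.10 (adjusted p = 0.00863). Stab1, a scavenger receptor that sinusoidal and lymphatic endothelium also carry, measured 194, 170.2 and 210.1 CPM and 297, 249 and 239 CPM, and rose by 0.45 ± 0.10 (adjusted p = 0.00891). Neither gene overlapped between groups, and with C1qc and Lcp1 they were the 4 genes called higher under all 16 alternatives tried for single genes, which leave out the stromal and leukocyte scales. Folr2, a folate receptor of resident macrophages, was low at 1.87, 1.18 and 2.99 CPM and 3.65, 3.28 and 4.54 CPM, without overlap, and narrowly missed the threshold (0.94 ± 0.32, adjusted p = 0.0506, and 0.0114 without control replicate 3). An antisense model, Gm10602, covers 63.1% of its exon bases, so its reads may be shared. F13a1, the coagulation factor XIII A chain, measured 205, 214 and 292 CPM and 284, 249 and 272 CPM; control replicate 3 was the highest of all 6 (0.18 ± 0.13, adjusted p = 0.328, and 0.0078 without that control). Pf4, a chemokine of platelets and macrophages, was at 0.13 ± 0.16 (adjusted p = 0.573), Ms4a7 at 0.20 ± 0.22 (adjusted p = 0.53) and the haemoglobin scavenger receptor Cd163 at 0.00 ± 0.29 (adjusted p = 0.993), all with overlapping groups. Of 7 lymphatic endothelial genes 4 rose, Pdpn, Flt4, Prox1 and Lyve1, and of 16 blood endothelial genes 12, and their part in the result of Stab1 was not tested. The adjusted p of Flt4 was 0.0535 to 0.0716 without cKO replicate 3 or control replicate 2 or 3, that of Prox1 0.069 to 0.117 without cKO replicate 1 or 3 or control replicate 1 or 2 and that of Lyve1 0.0954 to 0.134 without cKO replicate 1 or 3 or control replicate 1 or 3.

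**Figure D2:**
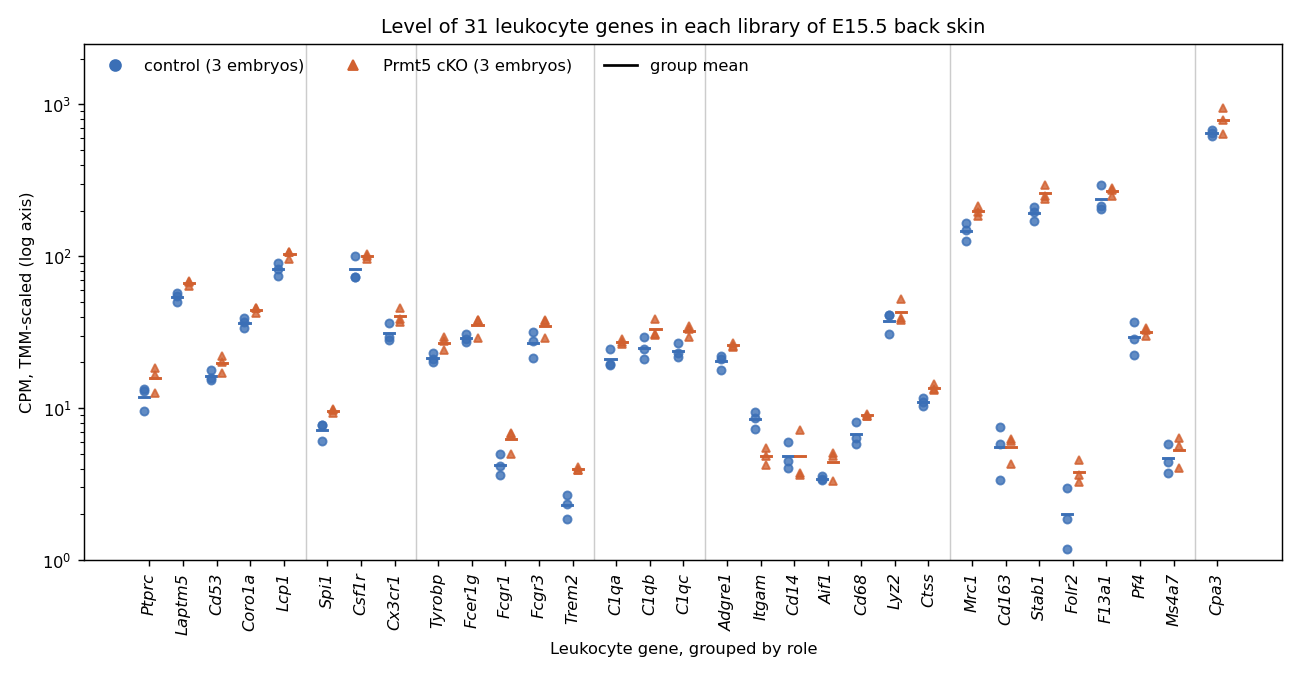
Level in CPM (log axis) of the 31 detected leukocyte genes in each of the 6 libraries, controls and cKO side by side, with 1 point per library. Cpa3 lies highest, cKO points lie mostly above control points, and for Itgam the 3 cKO points, 4.25 to 5.48 CPM, lie below the 3 controls, 7.24 to 9.45 CPM.

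Cpa3, the mast cell protease, was the most abundant of the 32 genes per length as well as in CPM. In the controls it had 428 CPM per kilobase of exon, and the next were Pf4 with 40.6, F13a1 with 35.2, Fcer1g with 33.1 and Tyrobp with 32.1 CPM per kilobase; the ranges of these 4 over the control libraries overlapped. At the other end of the detected genes stood Ptprc with 0.651 and Trem2 with 0.463 CPM per kilobase. The length used is the union of all annotated exons, 18.3 kilobases for Ptprc and 4.95 for Trem2. That union can exceed the length of a transcript, so levels per length may be set too low. Cpa3 measured 682, 620.2 and 644 CPM in control skin and 948, 642 and 795 CPM in cKO skin. cKO replicate 2 lay inside the control range and replicates 1 and 3 above it, and the difference of 0.29 ± 0.12 was not called (adjusted p = 0.102, and 0.00784 without cKO replicate 2). Cd207 had 0 counts in all 6 libraries, which allows up to 0.0453 to 0.0854 CPM per library at a limit of 3 counts. Langerin transcripts were thus not detectable at this depth in either group.

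The promoters of these genes were searched for GAGGAAG, a core of PU.1 sites, since Spi1 was among the genes that rose. RefSeq windows on GRCm38.p6, from 250 bases before to 50 bases after the start, were at hand for 26 of the 32 genes. The letters GAGGAAG, read on either strand, were found in 12 of the 26 (46.2%), and in 15.4% of 27025 genes with a window. Among the 26 they were found in 6 of 10 genes that rose, in 4 of 14 that were not called, in Itgam and in Cd207. In 10 of the 12 they lay on the strand opposite the gene, where the gene strand reads CTTCCTC; F13a1 had them on the gene strand and Itgam on both. A match is a description of the letters, not a site. The 250 bases before the start are shown for 4 genes, Mrc1, Fcgr1 and Trem2 as genes that rose and Itgam as the gene that fell, each chosen after the search; they are written along the gene, with the motif in capitals.
Mrc1, chr2:14229164-14229413, plus strand: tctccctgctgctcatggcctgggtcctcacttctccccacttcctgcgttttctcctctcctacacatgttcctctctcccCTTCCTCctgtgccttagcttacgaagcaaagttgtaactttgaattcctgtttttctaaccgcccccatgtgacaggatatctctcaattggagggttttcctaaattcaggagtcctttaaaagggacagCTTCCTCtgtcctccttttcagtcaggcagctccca
Fcgr1, chr3:96293970-96294219, minus strand: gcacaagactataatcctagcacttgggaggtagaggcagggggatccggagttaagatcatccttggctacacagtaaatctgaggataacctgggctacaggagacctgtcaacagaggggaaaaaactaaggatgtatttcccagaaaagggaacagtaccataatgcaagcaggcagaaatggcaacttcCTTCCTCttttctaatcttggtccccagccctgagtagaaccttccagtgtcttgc
Trem2, chr17:48346151-48346400, plus strand: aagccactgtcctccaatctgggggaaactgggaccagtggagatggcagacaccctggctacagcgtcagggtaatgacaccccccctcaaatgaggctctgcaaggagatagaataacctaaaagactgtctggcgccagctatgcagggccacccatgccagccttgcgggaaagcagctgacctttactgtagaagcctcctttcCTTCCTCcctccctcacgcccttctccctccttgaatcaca
Itgam, chr7:128062390-128062639, plus strand: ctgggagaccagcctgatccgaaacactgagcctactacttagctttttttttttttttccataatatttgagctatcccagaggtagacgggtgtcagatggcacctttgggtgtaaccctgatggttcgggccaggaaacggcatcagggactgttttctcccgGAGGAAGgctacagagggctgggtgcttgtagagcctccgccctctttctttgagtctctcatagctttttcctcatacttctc
In the first 3 the capitals stand for a match on the opposite strand, at base -168 and base -36 from the start in Mrc1, -56 in Fcgr1 and -41 in Trem2. In Itgam the match at base -84 is on the gene strand. These 4 were picked from called genes that held the motif, and Itgam was the only leukocyte gene that fell. They therefore do not show whether the motif goes with a rise or a fall.

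Lists of other genes of the same cells were read beside these. Here and below, their counts of calls stand beside 16.3% of all genes tested that rose and 19.6% that fell with TMM scaling. Calls on the stromal scale stand beside 4.19% called higher and 51.3% lower, and calls on the leukocyte scale beside 3.86% and 38.4%. Of 14 other pan-leukocyte genes 6 rose and 0 fell (median 0.34). The called genes with the largest values were Cyth4 at 0.46 ± 0.12, Ikzf1 at 0.42 ± 0.11, Vav1 at 0.39 ± 0.12 and Rac2 at 0.38 ± 0.09. Each of these 4 calls was lost in at least 1 fit without 1 library, and such a fit also has fewer embryos. The adjusted p was 0.0506 to 0.0558 without cKO replicate 3 or control replicate 2 for Cyth4 and 0.0537 without cKO replicate 3 for Rac2. It was 0.0501 to 0.0594 without cKO replicate 1 or 3 or control replicate 1 for Ikzf1 and 0.0742 to 0.0896 without cKO replicate 1, 2 or 3 or control replicate 1 or 2 for Vav1. Of 19 other macrophage genes 6 rose and 2 fell (median 0.39). Siglec1, the sialic acid receptor of tissue macrophages, measured 3.7, 4.09 and 4.9 CPM in control skin and 10.7, 6.46 and 9.38 CPM in cKO skin, without overlap. It rose by 1.06 ± 0.20 (adjusted p = 0.00406) and was also called higher relative to the stromal genes (0.66, adjusted p = 0.0183) and to the other leukocyte genes (0.71, adjusted p = 0.00657); the stromal adjusted p was 0.0608 to 0.0754 without cKO replicate 1 or 3 or control replicate 1. Mpeg1, a pore-forming protein of phagocytes, rose by 0.59 ± 0.17 (adjusted p = 0.0288, and 0.0521 to 0.0945 without cKO replicate 2 or 3 or control replicate 1 or 2), and the lysosomal protease Lgmn by 0.48 ± 0.09 (adjusted p = 0.00443). Of the 2 that fell, the prostaglandin D synthase Hpgds went from 29.9, 28.6 and 31.9 CPM to 23.1, 17.2 and 20.3 CPM (-0.58 ± 0.11, adjusted p = 0.00394; 0.37 when scaled to the pan-epithelial genes).

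**Figure D3:**
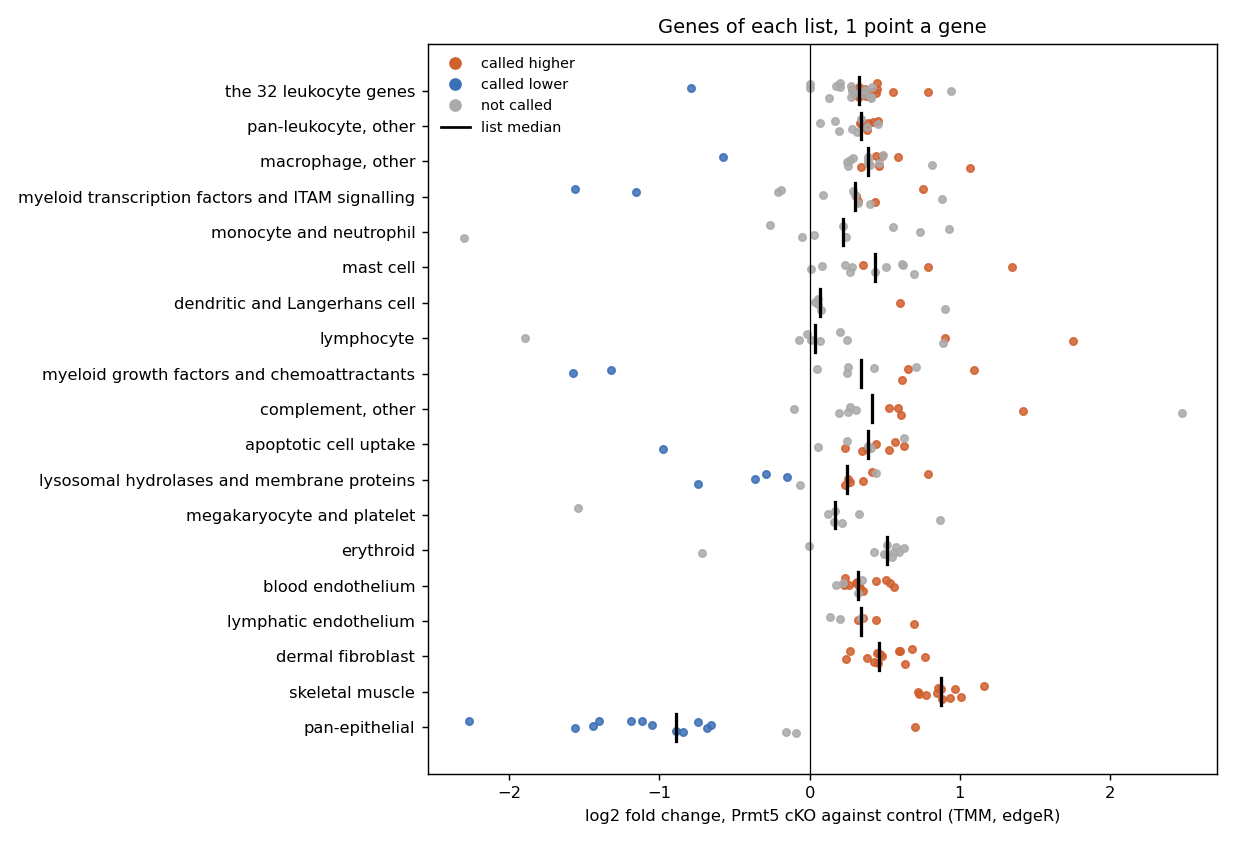
Log2 fold change (TMM scaling, cKO against control) of tested genes in the leukocyte genes and in lists of other genes, with 1 point per gene and a bar at the median of all tested genes of each list; 4 genes of the macrophage, signalling and lymphocyte lists are not drawn. The leukocyte genes have a median of 0.33, dermal fibroblast genes 0.47, blood endothelial genes 0.32, skeletal muscle genes 0.87 and pan-epithelial genes -0.89; scaled to stromal genes, not drawn, the leukocyte median is -0.07.

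Genes that act with Spi1, Tyrobp and the Fc receptors split. Of 15 myeloid transcription factors and signalling genes 4 rose and 3 fell, where 16.3% and 19.6% of all genes tested did so. The inositol phosphatase Inpp5d (SHIP1), which opposes signalling downstream of Fc receptors, measured 25.4, 27.6 and 27.8 CPM in control skin and 52.6, 42.4 and 41.5 CPM in cKO skin (0.76 ± 0.10, adjusted p = 0.000545), and was called higher on the stromal (0.35) and leukocyte (0.41) scales as well. Its adjusted p was 0.078 to 0.0865 on the stromal scale without cKO replicate 1 or control replicate 1, and 0.0555 to 0.136 on the leukocyte scale without cKO replicate 1 or any control library. The kinase Lyn rose by 0.32 ± 0.06 (adjusted p = 0.00399). The kinase Syk and the phospholipase Plcg2 rose by 0.31 and 0.43 (adjusted p = 0.0353 and 0.0286), with an adjusted p of 0.056 to 0.097 without cKO replicate 1, 2 or 3 or control replicate 1 or 2 for Syk and of 0.06 to 0.0922 without cKO replicate 1 or control replicate 2 or 3 for Plcg2. Among the 3 that fell, Cebpa fell by 1.56 on the log2 scale and Cebpb by 1.15 (adjusted p = 0.00127 and 0.00515); both factors are expressed in keratinocytes as well as in myeloid cells.

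Growth factors and chemoattractants for these cells also split by gene. Of 10 tested, 3 rose and 2 fell, where 16.3% and 19.6% of all genes tested did so. Csf1, the ligand of Csf1r made by stromal cells, measured 36.7, 29.8 and 34.8 CPM in control skin and 56.5, 49 and 49.8 CPM in cKO skin, and rose by 0.62 ± 0.09 (adjusted p = 0.00112). Il34, the other ligand, which keratinocytes make and on which Langerhans cells depend, measured 9.94, 6.28 and 9.17 CPM and 2.03, 3.14 and 3.31 CPM, and fell (-1.58 ± 0.24, adjusted p = 0.00122). The ligands of 1 receptor thus moved in opposite directions, with no overlap in either. Cx3cl1, the ligand of Cx3cr1, fell from 17.5, 18.6 and 14 CPM to 6.67, 7.17 and 6.23 CPM (-1.32 ± 0.13, adjusted p = 0.000104). Cxcl12, which attracts many leukocytes and is made by stromal cells, rose from 84.4, 79.4 and 87.2 CPM to 132, 127 and 136 CPM (0.66 ± 0.05, adjusted p = 3.4e-05), and the monocyte chemokine Ccl12 by 1.10 ± 0.27 (adjusted p = 0.0147). Kitl, the ligand of Kit and the most abundant of the list, was at 0.26 ± 0.09 (adjusted p = 0.0504; 0.0125 without cKO replicate 2 and 0.0296 without control replicate 3). On the stromal scale Csf1 was at 0.22, Cxcl12 at 0.26, Il34 at -1.96 and Cx3cl1 at -1.73, all 4 called. On the leukocyte scale Csf1 was not called (0.27, adjusted p = 0.127) and the others were (0.31, -1.92 and -1.67). The stromal call of Csf1 was lost when any 1 library was left out (adjusted p = 0.0554 to 0.163), that of Cxcl12 without cKO replicate 3 or control replicate 1 or 3 (0.0507 to 0.0917), and its leukocyte call when any 1 library was left out (0.0584 to 0.165).

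Mast cell genes were measured beside Cpa3 because 1 gene cannot stand for a cell type. Of 13 tested, 3 rose, Mcpt4, Cd200r3 and Gata2, and all 13 had a value above 0 (median 0.43). The summed level of the list was 1007 to 1195 CPM in control skin and 1133 to 1757 CPM in cKO skin, with an overlap. Gata2, a transcription factor of mast cells and endothelium, measured 46.2, 50 and 43.2 CPM and 63.2, 54.2 and 60.9 CPM (0.35 ± 0.08, adjusted p = 0.00775). The chymase Mcpt4 measured 10.6, 3.79 and 4.13 CPM and 15.3, 11.1 and 20.9 CPM, with control replicate 1 just below the lowest cKO library (1.35 ± 0.40, adjusted p = 0.0302). Its adjusted p was 0.0659 to 0.105 without cKO replicate 1 or 3 or control replicate 2 or 3, and that of Cd200r3 (0.79 ± 0.25, adjusted p = 0.0382) was 0.0802 to 0.126 without cKO replicate 1 or 3 or control replicate 1 or 2. The chymase Cma1, the most abundant of them, had overlapping groups (0.43 ± 0.15, adjusted p = 0.0577, 0.0123 without cKO replicate 2 and 0.0491 without control replicate 1). On the stromal and leukocyte scales 1 of the 13, Mcpt4, was called higher, with an adjusted p of 0.0516 to 0.142 without cKO replicate 1 or 3 or control replicate 2 or 3 on the stromal scale and of 0.0642 to 0.0894 without cKO replicate 3 or control replicate 2 or 3 on the leukocyte scale.

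Complement and the clearance of dying cells, the processes that C1q serves, were also read. Of 10 other complement genes 4 rose, C4b, Cd55, C2 and Serping1, and 0 fell (median 0.42). C4b, the next component after C1 in the classical pathway, was low at 0.789, 0.755 and 1.2 CPM in control skin and 2.45, 2.89 and 1.9 CPM in cKO skin, without overlap (1.42 ± 0.27, adjusted p = 0.00424; 1.01 on the stromal scale, adjusted p = 0.0102, and 0.0506 without cKO replicate 2). Serping1, the inhibitor of C1, and Cd55, an inhibitor on cell surfaces, rose by 0.53 ± 0.13 and 0.61 ± 0.12 (adjusted p = 0.0142 and 0.00489), and C2 by 0.59 ± 0.15 (adjusted p = 0.0166, and 0.0558 without cKO replicate 2). Of 13 genes of apoptotic cell uptake 7 rose and 1 fell (median 0.39): the bridging proteins Pros1 and Mfge8 rose by 0.63 ± 0.07 and 0.57 ± 0.08 (adjusted p = 0.000307 and 0.00062), the scavenger receptor Cd36 by 0.53 ± 0.13 (adjusted p = 0.0133), and the receptor Tyro3 fell from 82.5, 78.8 and 78.8 CPM to 42.2, 40.3 and 39.5 CPM (-0.98 ± 0.05, adjusted p = 2.64e-06). Lrp1, the most abundant, was at 0.41 ± 0.14 (adjusted p = 0.0553, and 0.0143 without cKO replicate 3). Many of these genes are expressed outside leukocytes, in fibroblasts, endothelium or epidermis.

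Lysosomal genes beside Ctss went both ways. Of 12 tested, 6 rose and 4 fell, and the summed level was 2084 to 2269.7 CPM in control skin and 2123 to 2220.1 CPM in cKO skin. Gpnmb, a glycoprotein of lipid-laden macrophages and of melanocytes, rose by 0.79 ± 0.18 (adjusted p = 0.0102), and the hydrolases Hexa and Ctsb by 0.42 ± 0.08 and 0.27 ± 0.05 (adjusted p = 0.00427 and 0.0044). Ctsc, which activates granule proteases of mast cells and neutrophils, fell by 0.74 on the log2 scale, Ctsd by 0.36, Lamp2 by 0.29 and Lamp1 by 0.15 (adjusted p = 0.000135, 0.00481, 0.0124 and 0.0353), and the 4 were at 0.21, 0.59, 0.66 and 0.81 when scaled to the pan-epithelial genes. The call of Lamp1 was lost without cKO replicate 1 or 2 or any control library (adjusted p = 0.0739 to 0.127).

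Markers of the other blood cells that skin could hold were sparse. Of 19 lymphocyte genes 12 were tested, and 2 rose and 2 fell, where 16.3% and 19.6% of all genes tested did so. Cd3d and Ms4a1 were at 0 in all libraries. The summed level was 31.2 to 32.8 CPM in control skin and 28.6 to 33 CPM in cKO skin. Gzmb, a granule protease of cytotoxic cells, measured 0.293, 0.332 and 0.285 CPM and 0.832, 0.93 and 1.34 CPM, without overlap (1.75 ± 0.34, adjusted p = 0.00439). Cd79b, a chain of the B cell receptor, rose by 0.90 ± 0.27 (adjusted p = 0.0308, and 0.0774 to 0.0972 without cKO replicate 1 or 3 or control replicate 2 or 3). Il2rg, the most abundant lymphocyte gene, was at 0.01 ± 0.08 (adjusted p = 0.955); it was called lower on the stromal scale (-0.40, adjusted p = 0.0122, and 0.0597 without control replicate 2) and not on the leukocyte scale (-0.34, adjusted p = 0.0913, and 0.0314 without cKO replicate 2). Of 9 dendritic and Langerhans cell genes 6 were tested and 1, the dendritic cell factor Zbtb46, rose (0.60 ± 0.11, adjusted p = 0.00315); endothelium expresses it too.

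With TMM scaling edgeR called no gene in 3 lists of blood cells. Of 9 monocyte and neutrophil genes tested 0 were called by that fit, with 1 higher and 1 lower at an unadjusted p under 0.05, and DESeq2 called 0 higher and 1 lower; on the stromal and leukocyte scales 1, S100a9, was called lower. Of 7 megakaryocyte and platelet genes, cells that share Pf4 with macrophages, 0 were called by that fit, 0 were at an unadjusted p under 0.05 and DESeq2 called 0, with 1 lower at an unadjusted p under 0.05. Gp1bb, a platelet receptor chain named after its values were seen, was at -1.54 ± 0.71 with overlapping groups (adjusted p = 0.127, 0.0387 without cKO replicate 1 and 0.0423 without control replicate 1). It was called lower on the stromal (-2.003, adjusted p = 0.0251) and leukocyte (-1.90, adjusted p = 0.013) scales, but not without control replicate 2 (0.152 and 0.067) nor, on the stromal scale, without cKO replicate 2 or 3 (0.0659 and 0.0679). Of 11 erythroid genes 0 were called by that fit or on the stromal or leukocyte scale, 2 were higher at an unadjusted p under 0.05 and DESeq2 called 1 higher. The erythroid sum ranged over 4253 to 6787 CPM in control skin and 5713 to 10989 CPM in cKO skin, highest in cKO replicate 3. Plac8, Itga2b and Hbb-bs, the most abundant gene of each list, were at 0.56 ± 0.26, 0.13 ± 0.14 and 0.50 ± 0.24 (adjusted p = 0.141, 0.537 and 0.153, the last 0.0451 without cKO replicate 1).

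Summed over all 32 genes, leukocyte transcripts made up 1764, 1743.5 and 1992 CPM in control skin and 2516, 2022 and 2289 CPM in cKO skin. Without Cpa3 the sums were 1082, 1123 and 1348 CPM in control skin and 1568, 1380.2 and 1494 CPM in cKO skin. Neither sum overlapped between groups, though cKO replicate 2 was close to control replicate 3 in both. Relative to the control mean the cKO libraries were at 1.37, 1.10 and 1.25 for the 32 genes, at 1.33, 1.28 and 1.21 for blood endothelial genes, at 1.74, 1.46 and 1.32 for dermal fibroblast genes and at 0.516, 0.546 and 0.584 for pan-epithelial genes. The sums of leukocyte and stromal genes were thus higher in all cKO libraries in which the epithelial sum was lower; their part in one another was not tested.

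**Figure D4:**
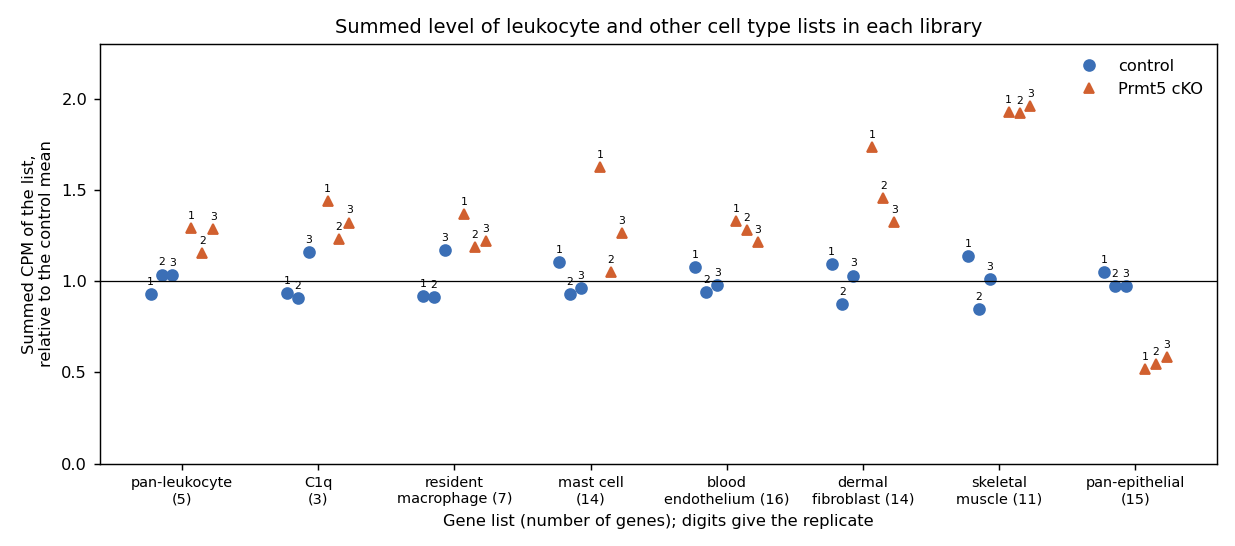
Summed CPM of gene lists in each library relative to the mean of the 3 controls (y axis; digits mark the replicate), for 3 groups of the leukocyte genes, the mast cell list and lists of other cells. The cKO libraries 1 to 3 lie at 1.29, 1.15 and 1.28 for the 5 pan-leukocyte genes, at 1.44, 1.23 and 1.32 for C1q and at 1.37, 1.19 and 1.22 for resident macrophage genes, with skeletal muscle at 1.92 to 1.96 and pan-epithelial genes at 0.516 to 0.584.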

How the data were processed

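Back skin RNA of 6 mouse embryos was sequenced, 3 control and 3 Prmt5 cKO, each library from its own embryo. Per the labels' protocols the libraries were stranded mRNA (TruSeq) run on a NovaSeq. Per the submitters' processing notes the tools were STAR, StringTie and DESeq2 and the build was mm10; versions and roles are not recorded there. The annotation release, the counting step and its strand setting are not stated in the sources at hand.

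Whole-number counts of 55401 genes were deposited for the 6 libraries, with totals of 45863776, 66122667 and 35667634 for control replicates 1 to 3 and then 47078517, 58309148 and 45371876 for the cKO. In every library more genes held a count of 3 than of 2, for example 994 against 808 in control replicate 1, so a count may stand for less than 1 read, and floors, which speak for counting error alone, may then be set too low. In the authors' deposited DESeq2 table, per the file headers, stand log2 fold changes and p-values with their adjusted values; refitting DESeq2 to the counts came within 0.01 of each log2 fold change (100% of 30615 genes). The b of the authors' deposited Sleuth table is a natural log (median of b over DESeq2's log2 fold change 0.693); its q-values and p-values are those the authors deposited.

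The counts were tested with edgeR 4.0.16 in R 4.3.3 (filterByExpr, 19227 genes; TMM; quasi-likelihood, group the only term; biological coefficient of variation 15.5%). The SE is the log2 fold change divided by the square root of F. The stromal and leukocyte scales used median-of-ratios size factors over 30 and 14 genes. Levels per kilobase used the union of exons in GENCODE M21 on GRCm38, which held 98.1% of the identifiers and all 32 genes. On simulated counts for the same 19227 genes the TMM fit recovered 68% of genes changed by 0.585 on the log2 scale and 96% of those changed by 1. That simulation changed a small part of the genes, as many up as down. It therefore held no shift in the share of cells. Genes as low as Trem2 and Folr2 and changes below 0.585 were not among those changed. Python 3.11.15 with SciPy 1.17.1 made the permutation test.

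Other settings tried were upper-quartile and RLE scaling, no filter, a filter at 1 CPM in 3 libraries, DESeq2 1.42.0, limma-voom (limma 3.58.1), a replicate block, pan-epithelial scaling, the authors' deposited DESeq2 table and leaving out each library; the Sleuth table was added after the data were seen. The 32 genes, the other lists and the tests were chosen with earlier results of these data known. Values are given in every library for genes called, for the most abundant gene of each role and for the mast and Langerhans cell genes; of the other lists up to 4 called genes with the largest change, the most abundant gene and all genes of a count of 5 or fewer are named, except some genes that are counted in their lists but not reported here by name. The 4 promoters, and Itgb2 and the monocyte and neutrophil genes named beside Itgam, were chosen after values were seen.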

Additional observations from a re-analysis of the deposited data

How the results depend on the processing

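Of the 15 genes called, 4 were called in the same direction under all 16 alternatives and 7 when any 1 library was left out. The number called higher, 14, was 22 with upper-quartile scaling, DESeq2 and the authors' deposited DESeq2 table, 6 in the authors' deposited Sleuth table, 30 with pan-epithelial scaling and 6 to 19 leaving out 1 library. Among all genes the number called higher, 3139, was 4514 with upper-quartile scaling, 3344 with DESeq2, 2424 in the Sleuth table and 2460 to 2780 leaving out 1 library. Pan-epithelial scaling gave 15284 genes higher and 813 lower in all, 0 leukocyte genes lower and a median of 1.28; the other alternatives moved the median by less than the spread of 0.113 (SD) between libraries. It turned Itgam to 0.16, Hpgds to 0.37, Ctsc to 0.21, Ctsd to 0.59, Lamp1 to 0.81, Lamp2 to 0.66 and Krt5 to 0.30, and its construction sets those genes to a reference that fell. Genes near 0 changed sign: Cd14 to -0.048 by limma-voom, -0.054 with a replicate block, -0.26 in the Sleuth table and between -0.39 and 0.19 without 1 library; Cd163 to -0.088 in the Sleuth table and between -0.25 and 0.29 without 1 library; Pf4 lay between -0.022 and 0.33, and Il2rg between -0.038 and 0.069, without 1 library. The cause was not tested.

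On the stromal scale 1 gene, Folr2, was called higher with a replicate block, 3 lower (Itgam, Pf4 and F13a1) with size factors from summed counts, and 0 to 1 higher and 1 to 2 lower without 1 library; on the leukocyte scale 0 to 1 were higher and 1 to 2 lower without 1 library. Besides Itgam, the genes called without 1 library were Folr2 and Trem2 higher and Cd14, F13a1 and Pf4 lower. Deviations of libraries with the same replicate number were not correlated across genes (-0.079, -0.043 and -0.062), and those of unlike numbers were at -0.009 to 0.072. No pairing by number was seen, but a pairing with a weak shared effect could give the same values. With the replicate numbers as a block 15 of the genes were called higher and 1 lower. Depth limits Cd207 and the genes with few counts, and 3 embryos a group limit the precision of all values.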
